A study of Rattus norvegicus with 35 samples.

Results

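Genes of dendritic cells and of the chemokine system that guides these cells to lymphoid tissue were followed in rat lung, namely Clec9a, Zbtb46, Cd83, Xcr1, Flt3, Irf8, Ccr7, Ccl19, Ccl21 and Il12b. They were chosen by name, as 10 of the 34766 gene names on the array, and 13 probes carried those names, with 2 probes each for Clec9a, Zbtb46 and Irf8. Of the 10 genes 9 passed the filter on dim probes and were tested. Xcr1 was not well above background on any of the 35 arrays. The accessions of 11 of the 13 probes were found in the RefSeq gene list used here. Those of the Flt3 probe and of the brighter Irf8 probe were not.

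Female Sprague Dawley rats aged 12 weeks at the first treatment received 2 kinds of nanotube or vehicle into the trachea, and RNA of the accessory lobe of the lung was hybridised to 1-colour Agilent arrays, 1 array per animal. The nanotubes were Mitsui-7, a long and rigid multi-walled carbon nanotube, and NM-403, a thin multi-walled carbon nanotube of a reference collection. All groups were examined 3 days post exposure after a schedule of weekly instillations, 4 in number, with 0.25 mg per rat for either nanotube. The labels do not say whether this dose is per instillation or in total. The 6 groups were wild-type (WT) rats given Pluronic vehicle (n = 6), Mitsui-7 (n = 6) or NM-403 (n = 6), and rats heterozygous for p53 (p53het), a genetically modified line, given Pluronic vehicle (n = 6), Mitsui-7 (n = 6) or NM-403 (n = 5). The sources used here do not describe how the p53 allele was altered.

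Conventional dendritic cells take up material in the airways, mature, and carry antigen to draining lymph nodes, where they activate T cells. Their precursors depend on the receptor Flt3, and the transcription factor Irf8 directs the subset named cDC1, which bears Clec9a and Xcr1. Maturing cells gain Cd83 and the receptor Ccr7 and may secrete IL-12, and Ccr7 follows the chemokines Ccl21, made by lymphatic endothelium and stroma, and Ccl19.

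Values are log2 signal relative to the 75th percentile of the same array, called the log2 level here, so they rank arrays for 1 probe and not probes against each other. A gene was called where limma's Benjamini-Hochberg adjusted p over 24468 genes was under 0.05. Values after ± in a group are SD, and those after ± in a difference are the standard errors of the fit. The 35 arrays had 66.1% to 86.4% of their 58717 spots for genes well above background, and no such spot was saturated. All 11 lung genes checked, among them those of surfactant and cilia, were above background on every array. Arrays lay on 5 slides that each held 5 or 6 of the groups, and values with slide as a block stand beside the counts they change. These are whole-lobe measurements, in which more cells of a type and more RNA per cell cannot be told apart.

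The stretches of 250 bases before the start of 3 genes that rose, Irf8, Clec9a and Cd83, and of the chemokine pair Ccl19 and Ccl21, of which Ccl21 was called in p53het rats and Ccl19 in no comparison, are shown to let the start regions be compared. They are from RefSeq on the build GRCr8, 5′ to 3′ on the gene's strand, and the table held such a stretch for 8 of the 10 genes; Il12b and Ccr7 had none. Capitals mark motif matches found by a search of both strands.
Irf8: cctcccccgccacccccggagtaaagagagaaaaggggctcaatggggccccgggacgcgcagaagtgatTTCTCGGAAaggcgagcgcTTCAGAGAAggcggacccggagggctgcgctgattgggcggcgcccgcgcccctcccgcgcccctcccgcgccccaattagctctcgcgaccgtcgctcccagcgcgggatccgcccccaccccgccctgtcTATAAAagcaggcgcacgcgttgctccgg
Clec9a: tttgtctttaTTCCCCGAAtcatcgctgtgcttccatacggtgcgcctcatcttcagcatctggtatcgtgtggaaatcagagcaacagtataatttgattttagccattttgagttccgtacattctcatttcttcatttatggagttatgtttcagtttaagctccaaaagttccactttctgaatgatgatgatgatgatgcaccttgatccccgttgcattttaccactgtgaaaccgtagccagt
Cd83: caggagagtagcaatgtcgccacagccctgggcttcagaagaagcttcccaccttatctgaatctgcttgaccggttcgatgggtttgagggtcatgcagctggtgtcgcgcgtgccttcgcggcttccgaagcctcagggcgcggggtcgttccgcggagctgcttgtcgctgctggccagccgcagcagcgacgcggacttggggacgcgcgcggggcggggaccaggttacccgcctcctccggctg
Ccl19: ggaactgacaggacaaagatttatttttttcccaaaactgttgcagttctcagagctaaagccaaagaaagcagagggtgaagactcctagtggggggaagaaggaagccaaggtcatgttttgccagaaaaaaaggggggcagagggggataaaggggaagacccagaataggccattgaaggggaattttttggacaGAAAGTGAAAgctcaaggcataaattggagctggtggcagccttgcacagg
Ccl21: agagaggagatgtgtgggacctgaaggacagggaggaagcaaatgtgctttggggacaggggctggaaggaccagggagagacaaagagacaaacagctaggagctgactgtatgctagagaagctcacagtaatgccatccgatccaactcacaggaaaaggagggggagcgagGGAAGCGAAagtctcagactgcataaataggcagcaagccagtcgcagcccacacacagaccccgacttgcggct
The stretches lie at chr19:65699034-65699283 (plus strand, Irf8), chr4:164546073-164546322 (plus strand, Clec9a), chr17:21112678-21112927 (minus strand, Cd83), chr5:61761165-61761414 (minus strand, Ccl19) and chr5:61777516-61777765 (minus strand, Ccl21).

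The motif of STAT factors, TTCNNNGAA, occurred 2 times before Irf8, from base 180 to 172 and from base 161 to 153 counted back from the start, and 1 time before Clec9a, and 7.67% of 33469 rat promoters of the same length held it. A TATAAA box stood from base 29 to 24 before Irf8; 12.9% of promoters held one. Ccl19 had the interferon-response-like motif GAAANNGAAA (3.41% of promoters) and Ccl21 the ETS-IRF composite motif GGAANNGAA (7.74%). None of the 8 held the NF-kappaB motif, which 3.54% of promoters held. The AP-1 motif TGANTCA (6.34%) was in the stretch of Xcr1. The short motif GGAAA, found in 5 of the 8 and in 56.9% of promoters, is not capitalised; before Irf8 it overlapped the first STAT motif. The Cd83 stretch had no match to any motif searched. Bases G and C made up 70.4% of the Irf8 stretch, 66.4% of the Cd83 stretch and 40.8% of the Clec9a stretch, beside a median of 51.2% over all promoters. A match is a string of letters in this window, and binding was not measured.

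In WT rats Mitsui-7 raised Irf8, Cd83, Clec9a, Il12b and Flt3, so 5 of the 9 tested genes rose and 0 fell. Over all genes 8.41% were called higher and 5.56% lower in this comparison. NM-403 raised 3 of the 9 in WT rats, Clec9a, Irf8 and Il12b, with 2.3% of all genes called higher and 0.899% lower. In p53het rats Mitsui-7 raised Cd83, Clec9a and Irf8 and lowered Ccl21 and Zbtb46, so 3 rose and 2 fell beside 5.29% and 6.29% of all genes. NM-403 in p53het rats raised 1 of the 9, Clec9a, beside 1.27% of all genes higher and 0.253% lower. The median log2 difference of the 9 genes against the control was 0.54, 0.23, 0.06 and 0.26 in these comparisons in that order, and that of all genes was 0.03, -0.0016, -0.02 and -0.08. With slide as a fixed block the shares called higher and lower were 11.7% and 10.5% (Mitsui-7, WT), 4.38% and 3.35% (NM-403, WT), 9.17% and 13.4% (Mitsui-7, p53het) and 2.23% and 1.7% (NM-403, p53het). Which direction prevailed over all genes depended on the setting. In WT rats given Mitsui-7, 60.2% of the called genes were higher, against 43.1% with arrays centred on their median, 47.8% after quantile normalization and 36.9% in the authors' deposited log2 values. In p53het rats given Mitsui-7, 45.7% were higher, against 55.3% with median centring, 52.8% in the authors' deposited values and 52.7% with those groups alone in the fit. In p53het rats given NM-403, 83.4% were higher, against 67.5% with normexp background correction, 56.8% with slide as a fixed block and 38.9% with array weights. In WT rats given NM-403, 71.9% were higher, against 56.7% with slide as a fixed block.

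**Figure D1:**
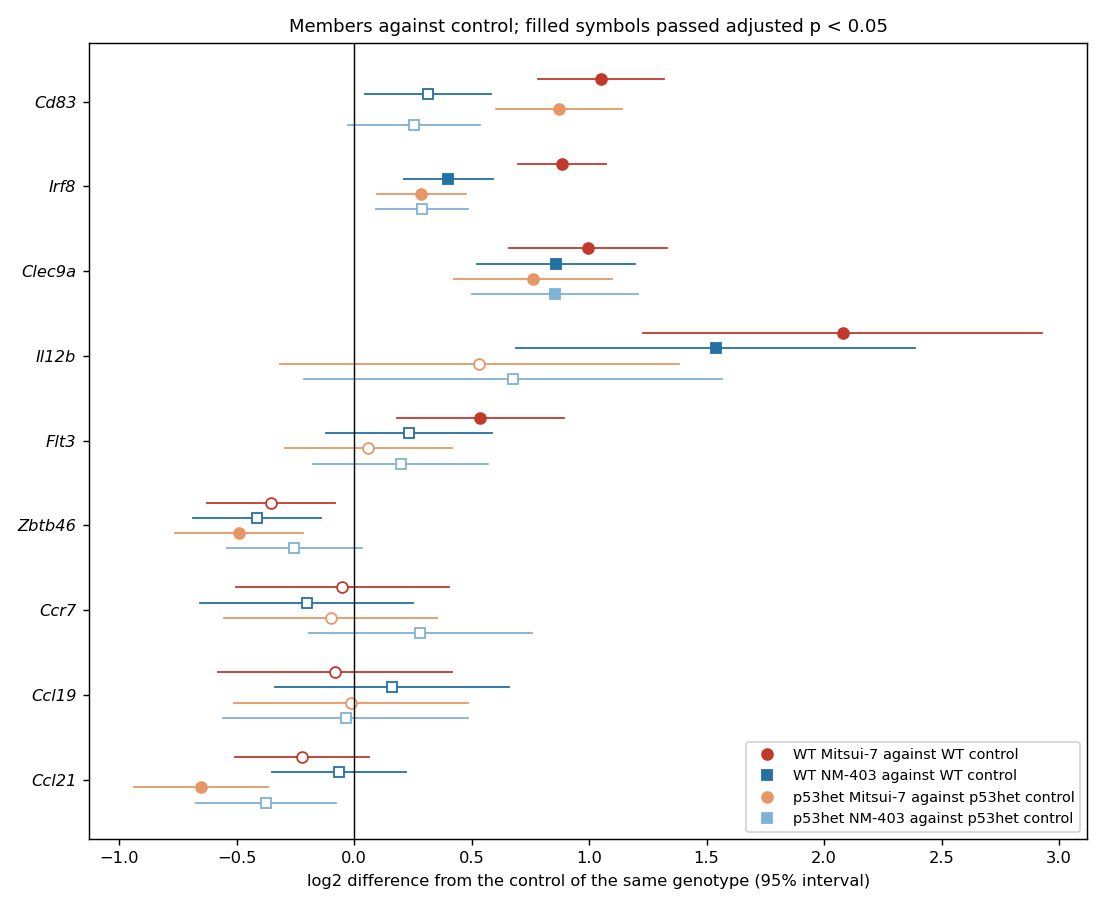
Log2 difference from the control of the same genotype (x axis) for the 9 tested genes (y axis), with 95% intervals of the fit; circles are Mitsui-7, squares NM-403, darker symbols WT, paler symbols p53het, and filled symbols passed the threshold. Clec9a is filled in all 4 comparisons, Cd83 for Mitsui-7 alone, and the Ccr7 and Ccl19 intervals all include 0.

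Clec9a encodes DNGR-1, a lectin receptor of cDC1 cells that recognises dead cells, and it rose in all 4 exposed groups. In WT controls its log2 level ran from -4.27 to -3.23 (median -3.96). It ran from -3.18 to -2.61 (median -2.92) after Mitsui-7 and from -3.22 to -2.85 (median -3.03) after NM-403, so every exposed WT animal lay above every WT control. The rise was 0.99 ± 0.16 for Mitsui-7 (1.99-fold, adjusted p = 5.77e-05) and 0.86 ± 0.16 for NM-403 (1.82-fold, adjusted p = 0.00168). In p53het rats the controls ran from -4.09 to -3.47 (median -3.81), and the Mitsui-7 animals spread most widely, from -3.73 to -2.47 (median -2.90). The 5 p53het animals given NM-403 were at -3.17, -3.05, -2.92, -2.85 and -2.65, all above the p53het controls, whereas 5 of 6 given Mitsui-7 were. The differences were 0.76 ± 0.16 (adjusted p = 0.00189) and 0.85 ± 0.17 (adjusted p = 0.00453). With normexp background correction the last one was 0.50 (adjusted p = 0.0858). Between the nanotubes Clec9a differed by 0.13 in WT rats (95% interval -0.20 to 0.47) and by -0.09 in p53het rats (-0.44 to 0.26). Neither passed the threshold, and the intervals leave room for a difference of either sign.

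These values come from the brighter of its 2 probes. The second Clec9a probe was well above background on 5 of 35 arrays, at mean log2 levels of -8.62 to -7.55 in the 6 groups, and none of its differences passed the threshold. For the WT comparisons it gave 0.65 ± 0.42 with Mitsui-7 and 0.91 ± 0.42 with NM-403, and for the p53het comparisons 0.06 ± 0.42 and 0.37 ± 0.44. Xcr1, the other cDC1 receptor, has only a bound. Its mean log2 levels were between -9.47 and -8.32, none well above background, and no fold is given. Its ligand Xcl1, a chemokine of NK and CD8 T cells, rose in WT rats given Mitsui-7 (1.17 ± 0.24, 2.25-fold, adjusted p = 9.56e-04), and its difference in p53het rats was 0.70 ± 0.24 (adjusted p = 0.0579). With NM-403 the Xcl1 values were 0.48 ± 0.24 in WT and 0.25 ± 0.25 in p53het rats, not called.

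Cd83 is a surface protein of mature dendritic cells that stabilises MHC class II, and it is also made by activated B cells and macrophages. Its log2 level in WT controls ran from -0.97 to -0.62 (median -0.75), and after Mitsui-7 from -0.27 to 0.68 (median 0.32). All Mitsui-7 animals lay above all controls, and the spread between them was wider than between controls (SD 0.38 and 0.13). The rise was 1.05 ± 0.13 (2.07-fold, adjusted p = 7.22e-07). In p53het rats it rose from between -0.87 and -0.46 (median -0.58) to between -0.23 and 0.41 (median 0.29), again without overlap (0.87 ± 0.13, 1.83-fold, adjusted p = 2.37e-05). With NM-403 the WT levels ran from -0.58 to -0.26, which also lay above every control, yet the difference of 0.31 ± 0.13 did not pass (adjusted p = 0.226). The p53het animals given NM-403 were at -0.64, -0.62, -0.26, -0.23 and -0.22, so 3 of 5 lay above all p53het controls (0.26 ± 0.14, adjusted p = 0.476).

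Cd83 was the gene of the 10 that separated the nanotubes in both genotypes. Mitsui-7 exceeded NM-403 by 0.74 ± 0.13 in WT rats (1.66-fold, adjusted p = 5.45e-04) and by 0.62 ± 0.14 in p53het rats (1.53-fold, adjusted p = 0.0122). In each genotype the lowest-reading Mitsui-7 animal was within the NM-403 range and the other 5 were above it. In WT rats 2 of 9 members were higher with Mitsui-7, Cd83 and Irf8, with 2.78% of all genes higher and 0.552% lower. In p53het rats 1 of 9 was, with 1.09% of all genes higher and 0.278% lower. The 83.4% of called genes that were higher with Mitsui-7 in WT rats became 66.4% with median centring, 72.6% after quantile normalization and 62.9% in the authors' values. The p53het value lost its call without replicate 4 of the p53het NM-403 group (0.56, adjusted p = 0.0531) and when those groups alone were fitted (adjusted p = 0.0747).

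Irf8, the transcription factor that cDC1 cells, monocytes and B cells need for their development, had its largest measured rise in WT rats given Mitsui-7. The WT controls ran from -1.62 to -1.33 (median -1.53), the NM-403 animals from -1.29 to -0.92 (median -1.09) and the Mitsui-7 animals from -0.96 to -0.31 (median -0.61). The controls did not overlap with either exposed group. The rise was 0.88 ± 0.09 for Mitsui-7 (1.85-fold, adjusted p = 2.43e-08) and 0.40 ± 0.09 for NM-403 (1.32-fold, adjusted p = 0.00987), and the 2 nanotubes differed by 0.48 ± 0.09 (adjusted p = 0.00121). With those 2 groups alone in the fit the last difference did not pass (adjusted p = 0.0581).

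In p53het rats the 2 Irf8 probes gave different steps. At the second probe the step was 0.80 with Mitsui-7 and 0.31 with NM-403. At the brighter probe, which stands for the gene here, it was 0.29 with either nanotube. Controls ran from -1.37 to -1.14 (median -1.27), Mitsui-7 animals from -1.09 to -0.74 (median -1.04), and the 5 NM-403 animals were at -1.08, -1.07, -1.07, -0.93 and -0.76. All exposed animals lay above all p53het controls. The difference was 0.29 ± 0.09 for Mitsui-7 (1.22-fold, adjusted p = 0.0384) and 0.29 ± 0.10 for NM-403, which did not pass (adjusted p = 0.151). Leaving out any 1 of 8 animals ended the Mitsui-7 call (adjusted p 0.0536 to 0.121; p53het control replicates 1, 2, 3, 4 and 6 and p53het Mitsui-7 replicates 2, 4 and 5). Of the 13 other settings tried 3 ended it (adjusted p 0.0693 to 0.116).

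The interaction of genotype with Mitsui-7 was -0.60 ± 0.13 for Irf8. Its adjusted p of 0.341 was the smallest among the members and did not pass. Controls of the 2 genotypes differed by 0.23 ± 0.09 (adjusted p = 1), with p53het the higher, and this difference enters the interaction. The second Irf8 probe, above background on all 35 arrays, rose by 1.18 ± 0.21 with Mitsui-7 in WT rats (adjusted p = 1.89e-04) and by 0.80 ± 0.21 in p53het rats (adjusted p = 0.0119). Its interaction was -0.39 ± 0.30 (adjusted p = 1), within the error of the first probe's. With NM-403 it gave 0.52 ± 0.21 in WT rats (adjusted p = 0.224) and 0.31 ± 0.24 in p53het rats (adjusted p = 0.668), the latter from 4 animals since 1 spot was an outlier.

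**Figure D2:**
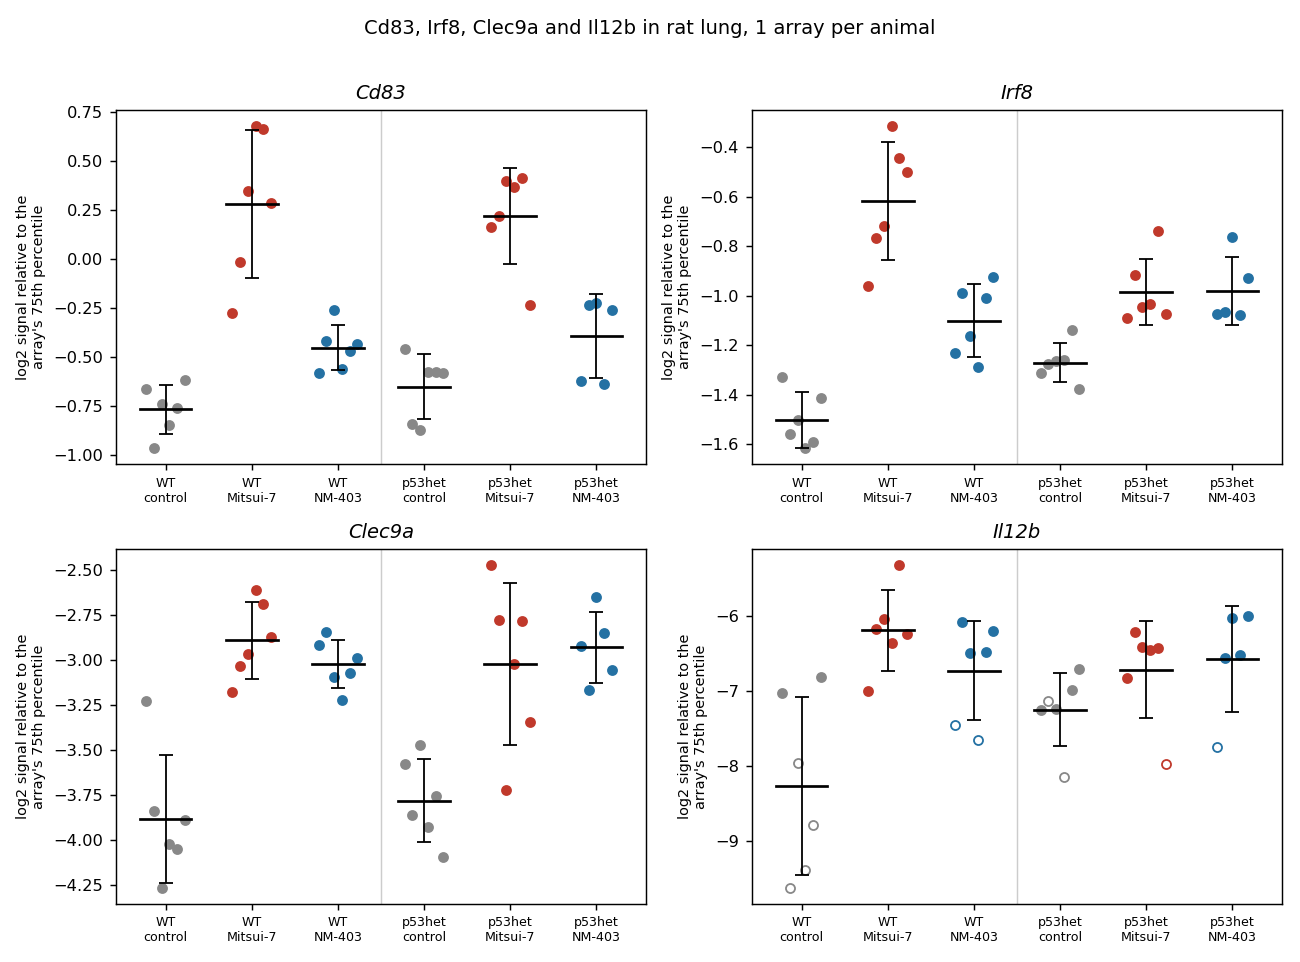
Log2 level relative to the array's 75th percentile (y axis) of Cd83, Irf8, Clec9a and Il12b in the 6 groups (x axis); each point is 1 animal, open points were not well above background, and lines and bars are mean and SD. Mitsui-7 animals (red) stand above the controls (grey) for Cd83 and Irf8 in both genotypes. At the brighter Irf8 probe, shown here, the step is 0.88 in WT and 0.29 in p53het rats, a difference that was not called.

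**Figure D3:**
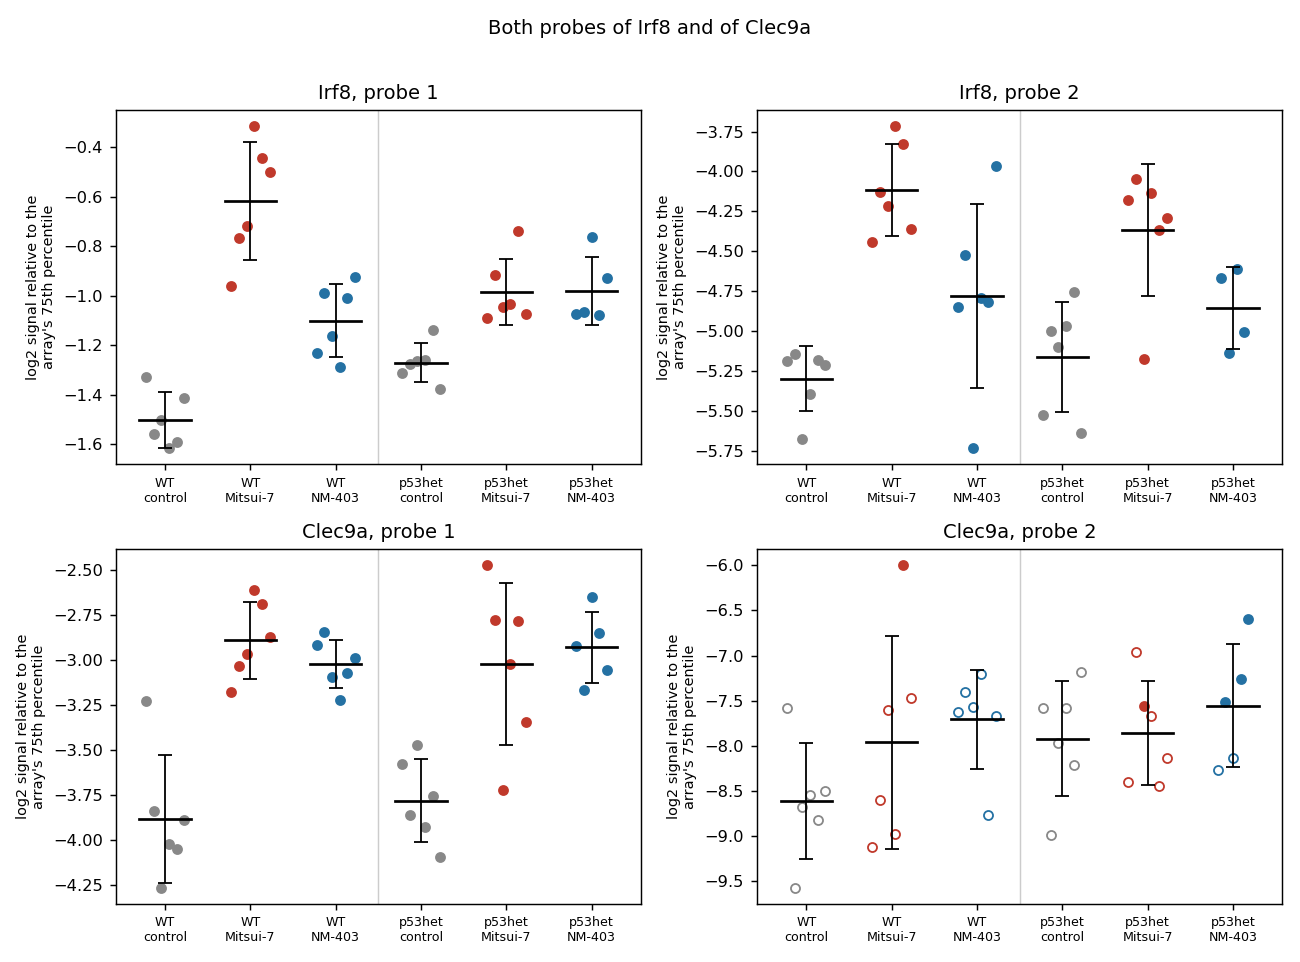
The same y axis for the 2 probes of Irf8 (upper row) and of Clec9a (lower row), points, lines and bars as mean and SD of 5 or 6 animals, with 4 for the second Irf8 probe in p53het rats given NM-403. Both Irf8 probes are high after Mitsui-7, and nearly all points of the second Clec9a probe are open, that is not well above background.

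Il12b encodes the p40 chain shared by IL-12 and IL-23, and it was dim, above background on 25 of 35 arrays. In WT controls 2 of 6 arrays were above background, and log2 levels ran from -9.62 to -6.81 (median -8.37). After Mitsui-7 all 6 were (-7.0 to -5.32, median -6.20), and after NM-403 4 of 6 were (-7.65 to -6.08, median -6.49). Levels were 2.08 ± 0.42 higher with Mitsui-7 (adjusted p = 6.37e-04) and 1.54 ± 0.42 higher with NM-403 (adjusted p = 0.0328), and no fold is given since most of the control values behind these sizes were not well above background. In p53het rats 4 of 6 controls, 5 of 6 Mitsui-7 and 4 of 5 NM-403 arrays were above background. The p53het controls ran from -8.15 to -6.71 (median -7.19), higher on average than the WT controls by 1.02 ± 0.42 (adjusted p = 1). The p53het differences were 0.53 ± 0.42 with Mitsui-7 (adjusted p = 0.477) and 0.68 ± 0.44 with NM-403 (adjusted p = 0.576), and the interaction with Mitsui-7 was -1.55 ± 0.59 (adjusted p = 1).

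With normexp background correction, which adds 50 to every corrected signal, the WT Il12b rises shrank to 0.45 (adjusted p = 0.0273) and 0.35 (adjusted p = 0.208). The NM-403 call in WT rats was also lost after quantile normalization (adjusted p = 0.0551), with no filter on dim probes (0.0514) and with those groups alone in the fit (0.146). It was lost as well without any 1 of 7 animals (adjusted p 0.0521 to 0.113; WT control replicates 2, 4 and 5 and WT NM-403 replicates 2, 3, 5 and 6). Among the partners of IL-12 the p19 chain Il23a was not called, with differences of 0.20 ± 0.22 and 0.33 ± 0.23 for NM-403 in WT and p53het rats and -0.01 ± 0.22 for Mitsui-7 in p53het rats.

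Flt3, the receptor through which dendritic cell precursors expand, was called in 1 comparison. In WT rats its log2 level was -4.56 to -4.06 in controls (median -4.29) and -4.13 to -3.21 after Mitsui-7 (median -3.87), with 4 of 6 exposed animals above all controls (0.54 ± 0.17, 1.45-fold, adjusted p = 0.0357). The other differences against control were 0.23 ± 0.17 for NM-403 in WT rats and 0.06 ± 0.17 and 0.20 ± 0.18 for Mitsui-7 and NM-403 in p53het rats. The call was lost without WT control replicate 1, 3 or 4 or WT Mitsui-7 replicate 3, 4 or 5 (adjusted p 0.0511 to 0.122) and under 4 other settings (0.0507 to 0.0919). Its ligand gene Flt3lg did not pass in any comparison. For Mitsui-7 in WT rats, where Flt3 was called, Flt3lg gave -0.23 ± 0.15 (adjusted p = 0.355). It gave -0.17 ± 0.15 for NM-403 in WT rats and -0.14 ± 0.15 for Mitsui-7 in p53het rats.

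Zbtb46 encodes a transcription factor of conventional dendritic cells that endothelial cells also express, and its values against control were below 0 with both nanotubes in both genotypes. The p53het controls ran from -2.69 to -2.06 (median -2.12) and the p53het Mitsui-7 animals from -2.95 to -2.47 (median -2.72). The groups overlapped through 1 control at -2.69, and 3 of 6 exposed animals lay below all controls (-0.49 ± 0.13, 1.40-fold lower, adjusted p = 0.0139). The WT values were -0.35 ± 0.13 for Mitsui-7 (adjusted p = 0.0745) and -0.41 ± 0.13 for NM-403 (adjusted p = 0.0888), and NM-403 in p53het rats gave -0.25 ± 0.14 (adjusted p = 0.495). The WT Mitsui-7 value passed without WT control replicate 4 (adjusted p = 0.0435), without WT Mitsui-7 replicate 5 (0.0479), with median centring (0.035) and with array weights (0.0417). The second Zbtb46 probe, above background on 26 arrays, was not called; it gave 0.13 ± 0.34 for Mitsui-7 in p53het rats, the opposite sign, and -0.18 ± 0.34 in WT rats. Of the 11 lung genes checked, 1 rose and 2 fell with Mitsui-7 in each genotype. Beside these, 8.41% of all genes rose and 5.56% fell in WT, and 5.29% and 6.29% in p53het rats. Pecam1, an endothelial gene among the 11, did not pass with Mitsui-7 in WT rats (-0.34 ± 0.13, adjusted p = 0.0858). Cldn5, a junction gene of endothelium, was among those that fell (-0.67 ± 0.23 in WT, adjusted p = 0.0448; -0.72 ± 0.23 in p53het, adjusted p = 0.0326), and its part in the Zbtb46 result was not tested.

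Ccl21, the lymphatic and stromal ligand of Ccr7, fell in p53het rats given Mitsui-7. In p53het controls its log2 level ran from 0.60 to 1.00 (median 0.78) and after Mitsui-7 from -0.28 to 0.43 (median 0.14), so all 6 exposed animals lay below all 6 controls (-0.65 ± 0.14, 1.57-fold lower, adjusted p = 0.00175). The p53het animals given NM-403 were at 0.15, 0.31, 0.45, 0.47 and 0.63, and 4 of 5 lay below every control. That difference was -0.38 ± 0.15 and did not pass (adjusted p = 0.255), but it did with slide as a fixed block (-0.43 ± 0.10, adjusted p = 0.00868) or as a random block (-0.42, adjusted p = 0.0173). On the 4 slides that held both groups it was between -0.57 and -0.20.

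In WT rats the Ccl21 groups overlapped. Controls ran from 0.05 to 0.85 (median 0.61), Mitsui-7 animals from 0.04 to 0.53 (median 0.29) and NM-403 animals from 0.09 to 0.81 (median 0.46). The differences were -0.22 ± 0.14 (adjusted p = 0.329) and -0.06 ± 0.14 (adjusted p = 0.899). The interaction of genotype with Mitsui-7 was -0.43 ± 0.20 (adjusted p = 1), so a difference between genotypes is not shown.

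Ccl19, the other ligand of Ccr7, was not called in any comparison. Its groups overlapped widely, with medians from -1.31 to -1.05 and the highest array of the WT controls (-0.21) 3.12-fold above the lowest (-1.85). Its differences against control were -0.08 ± 0.24, 0.16 ± 0.24, -0.01 ± 0.24 and -0.04 ± 0.26 for Mitsui-7 and NM-403 in WT and then in p53het rats. The 95% intervals reach from -0.58 to 0.66 over these comparisons and each includes 0, so they leave room for a difference of either sign. Both chemokine genes lie on the same strand of chromosome 5, and their start regions are printed above.

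Ccr7 itself was dim but above background on 34 of 35 arrays, and it was not called either. Group medians ran from -5.46 to -5.05. Its differences against control were -0.05 ± 0.22 and -0.20 ± 0.22 in WT rats and -0.10 ± 0.22 and 0.28 ± 0.23 in p53het rats, for Mitsui-7 and NM-403 in that order. The p53het groups given the 2 nanotubes did not overlap. Mitsui-7 animals ran from -5.72 to -5.18, and the NM-403 animals were at -5.17, -5.17, -5.05, -4.99 and -4.91. That difference of -0.38 ± 0.23 was within the spread the fit allows (adjusted p = 0.519).

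**Figure D4:**
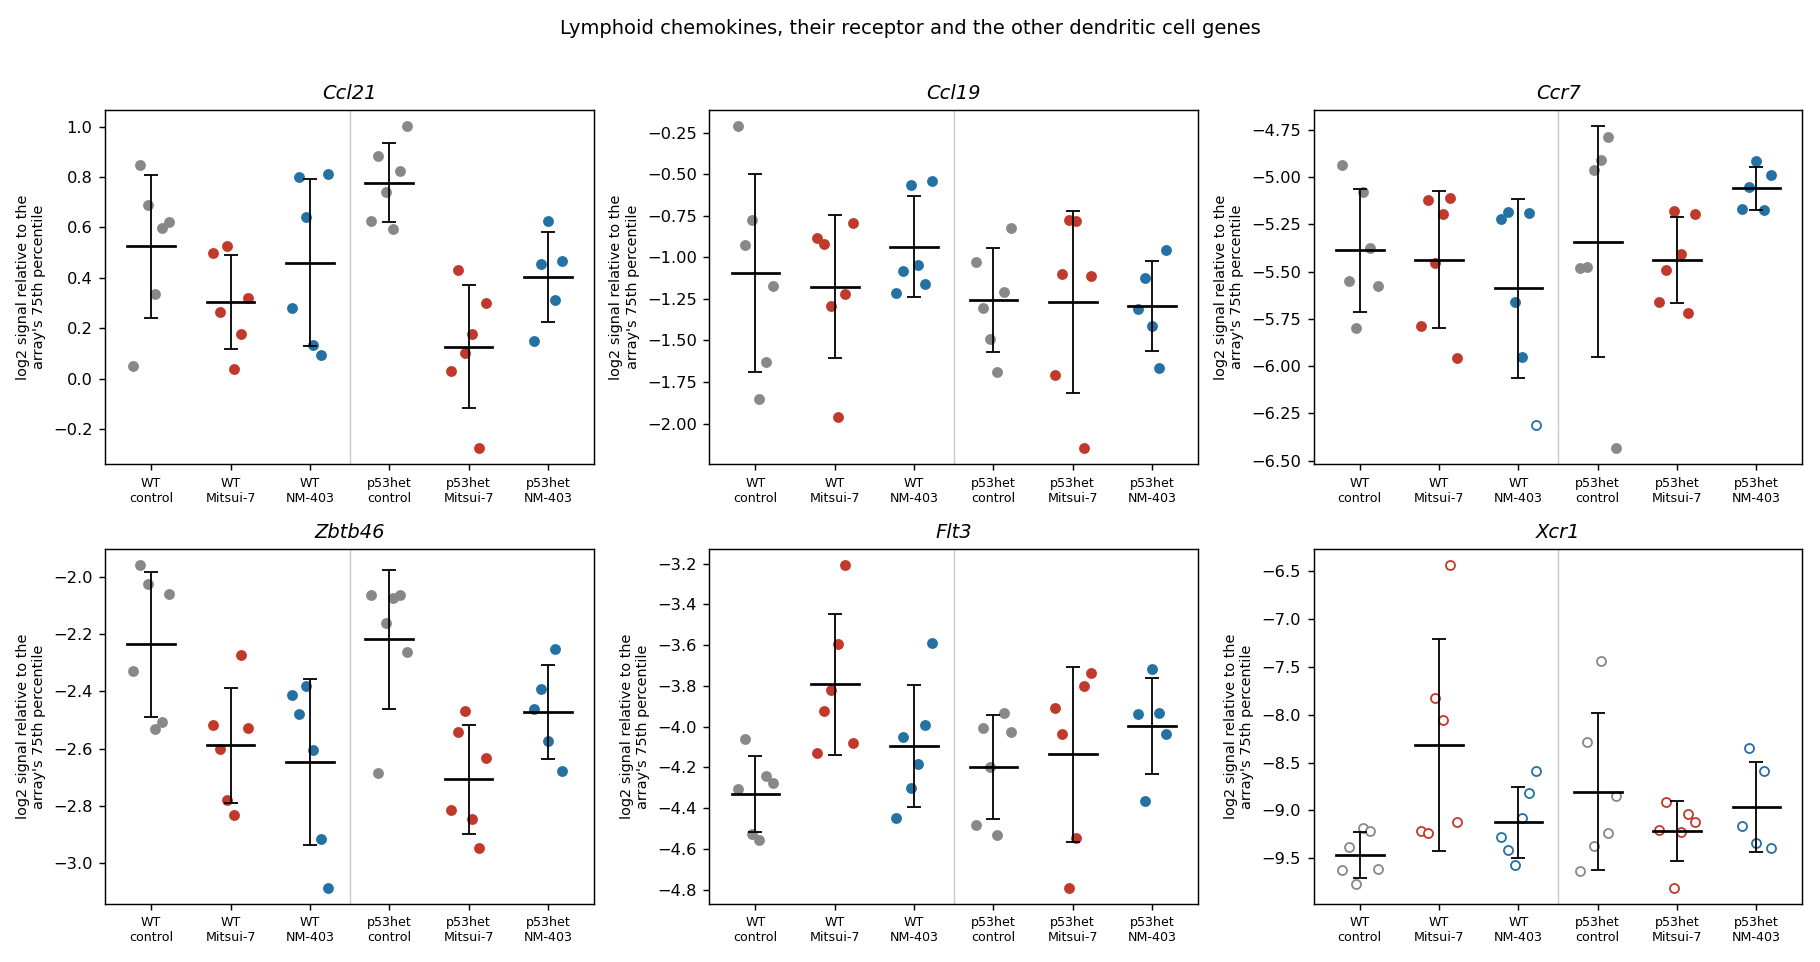
Log2 level (y axis) of Ccl21, Ccl19, Ccr7, Zbtb46, Flt3 and Xcr1 in the 6 groups (x axis), 1 point per animal, open points not well above background, lines and bars mean and SD. The p53het Mitsui-7 points for Ccl21 (-0.28 to 0.43) lie wholly below the p53het control points (0.60 to 1.00), and all Xcr1 points are open.

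Controls of the 2 genotypes showed 0 called genes among the members and 0 over all genes (0% of genes called), and both interactions gave 0 and 0 as well (0% each). At an unadjusted limma p under 0.05, 2 of the 9 members (Irf8 and Il12b, both higher in p53het controls) and 483 genes differed between the controls. For the Mitsui-7 interaction it was 3 members (Irf8, Il12b and Ccl21) and 729 genes, and for the NM-403 interaction 0 members and 413 genes. With slide as a random block or with array weights 2 genes passed for the Mitsui-7 interaction, and 0 members.

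Other genes of the dendritic cell subsets were followed in lists. Shares of all genes called higher and lower stand beside their counts as follows. With Mitsui-7 they were 8.41% and 5.56% in WT and 5.29% and 6.29% in p53het rats. With NM-403 they were 2.3% and 0.899% in WT and 1.27% and 0.253% in p53het rats. Of 9 further cDC1 genes 3 rose and 1 fell with Mitsui-7 in WT rats: Gcsam (0.86 ± 0.18, adjusted p = 8.97e-04), Tlr3, a receptor for double-stranded RNA (0.61 ± 0.14), and the fatty acid transporter Cd36 (0.65 ± 0.15) were higher, and the adhesion molecule Cadm1 was lower (-0.36 ± 0.12, adjusted p = 0.0392). In p53het rats Gcsam (0.72 ± 0.18) and Cd36 (0.65 ± 0.15) rose with Mitsui-7. Gcsam rose with NM-403 in WT rats (0.62 ± 0.18, adjusted p = 0.048), and in p53het rats 0 of 9 were called. The list median was 0.37, 0.28, 0.19 and 0.19 for Mitsui-7 in WT, Mitsui-7 in p53het, NM-403 in WT and NM-403 in p53het rats, with medians of all genes between -0.08 and 0.03. Cd36 is abundant in macrophages and endothelium too. With slide as a fixed block 4 of the 9 rose and 1 fell with Mitsui-7 in each genotype, and Gcsam rose with NM-403 in both. That block gave 11.7% of all genes higher and 10.5% lower with Mitsui-7 in WT, and 9.17% and 13.4% in p53het rats.

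Of 7 tested cDC2 genes 3 rose with Mitsui-7 in WT rats: Irf4, the transcription factor of this subset and of activated macrophages (0.98 ± 0.15, 1.98-fold, adjusted p = 1.39e-05), the integrin Itgax (1.04 ± 0.23, 2.06-fold, adjusted p = 0.00147) and Sirpa (0.31 ± 0.09). In p53het rats Irf4 (0.80 ± 0.15) and Sirpa (0.31 ± 0.09) rose and Klf4 fell (-0.57 ± 0.18, adjusted p = 0.0371). NM-403 raised 0 of 7 in WT rats and Irf4 in p53het rats (0.62 ± 0.15, adjusted p = 0.0288). Irf4 (0.63 ± 0.15) and Itgax (0.81 ± 0.23) were higher with Mitsui-7 than with NM-403 in WT rats. When slide was a fixed block 5 of 7 rose with Mitsui-7 in WT rats, beside 11.7% of all genes, and Irf4 rose with NM-403 in WT rats too.

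Of 16 genes of mature dendritic cells 3 rose in each of the 4 comparisons with control and 1 fell in p53het rats given Mitsui-7, beside 8.41%, 2.3%, 5.29% and 1.27% of all genes higher for Mitsui-7 and NM-403 in WT and then in p53het rats. The other 12 or 13 did not pass, among them Fscn1, Lamp3, Cd40, Relb, Cd274 and Socs2 in all 4 comparisons. Tnfrsf4, the costimulatory receptor OX40 known mainly from activated T cells, rose in all 4: 0.78 ± 0.14 and 0.51 ± 0.14 in WT rats given Mitsui-7 and NM-403, and 0.95 ± 0.14 and 0.82 ± 0.14 in p53het rats. The costimulatory ligand Cd86 rose with Mitsui-7 in WT rats (1.57 ± 0.18, 2.97-fold, adjusted p = 1.85e-07) and in p53het rats (1.38 ± 0.18, 2.60-fold, adjusted p = 2.74e-06) and with NM-403 in p53het rats (0.88 ± 0.19, adjusted p = 0.00922). The chemokine Ccl22 rose in p53het rats with both (0.81 ± 0.22 and 0.91 ± 0.23). The survival gene Birc3 rose in WT rats with both (0.53 ± 0.14 and 0.65 ± 0.14), and Tnfrsf9, the receptor 4-1BB, with NM-403 in WT rats (0.90 ± 0.23). The calcium channel subunit Cacnb3, a gene of migrating dendritic cells, fell in p53het rats given Mitsui-7 (-0.35 ± 0.11, adjusted p = 0.0306). Cd86 was 1.09 ± 0.18 higher with Mitsui-7 than with NM-403 in WT rats (adjusted p = 2.22e-04), the same direction as Cd83. With slide as a fixed block the numbers higher were 5, 4, 7 and 4 in the order above, beside 11.7%, 4.38%, 9.17% and 2.23% of all genes. Fscn1 and Relb were among the 7 for Mitsui-7 in p53het rats.

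Of 9 plasmacytoid dendritic cell genes 3 rose with Mitsui-7 in WT rats: the interferon regulator Irf7 (1.30 ± 0.24, adjusted p = 2.23e-04), Siglech (1.32 ± 0.45, adjusted p = 0.0456) and Runx2 (0.56 ± 0.15). None of the 9 passed in the other 3 comparisons with control. Over all genes 8.41% were higher with Mitsui-7 in WT rats. Irf7 was higher (1.00 ± 0.24) and Cox6a2 lower (-0.92 ± 0.25) with Mitsui-7 than with NM-403 in WT rats. The list median was 0.0047 in WT and -0.31 in p53het rats given Mitsui-7. Under the slide block Siglech did not pass, Bst2 fell with Mitsui-7 in both genotypes, Runx2 rose and Tcf4 fell in p53het rats, and 0 of 9 were called with NM-403. That block gave 11.7% of all genes higher and 10.5% lower with Mitsui-7 in WT, and 9.17% and 13.4% in p53het rats.

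A list of 13 tested genes held ligands, receptors and subunits of the members. It also held Csf2, Csf2ra, Csf2rb, Nfil3 and Nr4a3, which are not such partners. Of the 13 genes 4 rose (Xcl1, Csf2ra, Csf2rb and Nr4a3) and 2 fell (Ackr4 and Csf2) with Mitsui-7 in WT rats. In p53het rats 2 rose and 1 fell with Mitsui-7, and Nr4a3 was the 1 gene that rose with NM-403 in each genotype. Beside these, 8.41% of all genes rose and 5.56% fell with Mitsui-7 in WT, and 5.29% and 6.29% in p53het rats. With NM-403 2.3% and 1.27% of all genes were higher in WT and p53het rats. Nr4a3, a nuclear receptor needed for dendritic cell migration, rose in all 4 exposed groups: 1.55 ± 0.29 and 1.40 ± 0.29 in WT rats given Mitsui-7 and NM-403, and 0.97 ± 0.29 and 1.16 ± 0.30 in p53het rats (adjusted p 2.81e-04, 0.00374, 0.0252 and 0.0428). Ackr4, the scavenging receptor that removes Ccl19 and Ccl21, fell with Mitsui-7 in WT rats (-0.90 ± 0.17, 1.86-fold lower, adjusted p = 3.01e-04) and in p53het rats (-1.02 ± 0.17, 2.03-fold lower, adjusted p = 7.98e-05). Its values with NM-403 were -0.51 ± 0.17 (adjusted p = 0.0988) and -0.51 ± 0.18 (adjusted p = 0.171). The shared receptor chain Csf2rb rose with Mitsui-7 in both genotypes (1.95 ± 0.39 and 1.37 ± 0.39), from controls of which 2 of 6 and 1 of 6 arrays were above background, so these sizes rest on control values that mostly were not. Csf2, the gene of GM-CSF, fell in WT rats given Mitsui-7 (-0.32 ± 0.11, adjusted p = 0.045). Csf2 was also lower with Mitsui-7 than with NM-403 in WT rats (-0.38 ± 0.11, adjusted p = 0.0487).

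Genes of lymphoid tissue formation showed no common direction, with medians of 0.03 in WT and -0.04 in p53het rats given Mitsui-7 over 19 tested. With Mitsui-7 2 rose and 2 fell in WT rats, beside 8.41% and 5.56% of all genes. In p53het rats 1 rose and 1 fell, beside 5.29% and 6.29%. The B cell chemokine Cxcl13 rose with Mitsui-7 in both genotypes (0.90 ± 0.23, adjusted p = 0.00807, and 1.04 ± 0.23, adjusted p = 0.00257). It was higher with Mitsui-7 than with NM-403 in both as well (0.97 ± 0.23 and 1.21 ± 0.24). Tnfrsf11a, the receptor RANK, rose in WT rats with both nanotubes (0.60 ± 0.15 and 0.66 ± 0.15). Icam1 (-0.34 ± 0.08) and Ccl20 (-0.70 ± 0.24) fell in WT and Glycam1 (-0.83 ± 0.27) in p53het rats given Mitsui-7. The lymphotoxin gene Ltb was lower with Mitsui-7 than with NM-403 in WT rats (-0.84 ± 0.16, adjusted p = 7.64e-04). With NM-403 in p53het rats 0 of 19 were called, also with slide as a fixed block. Ccl20 and Glycam1 did not pass with that block.

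**Figure D5:**
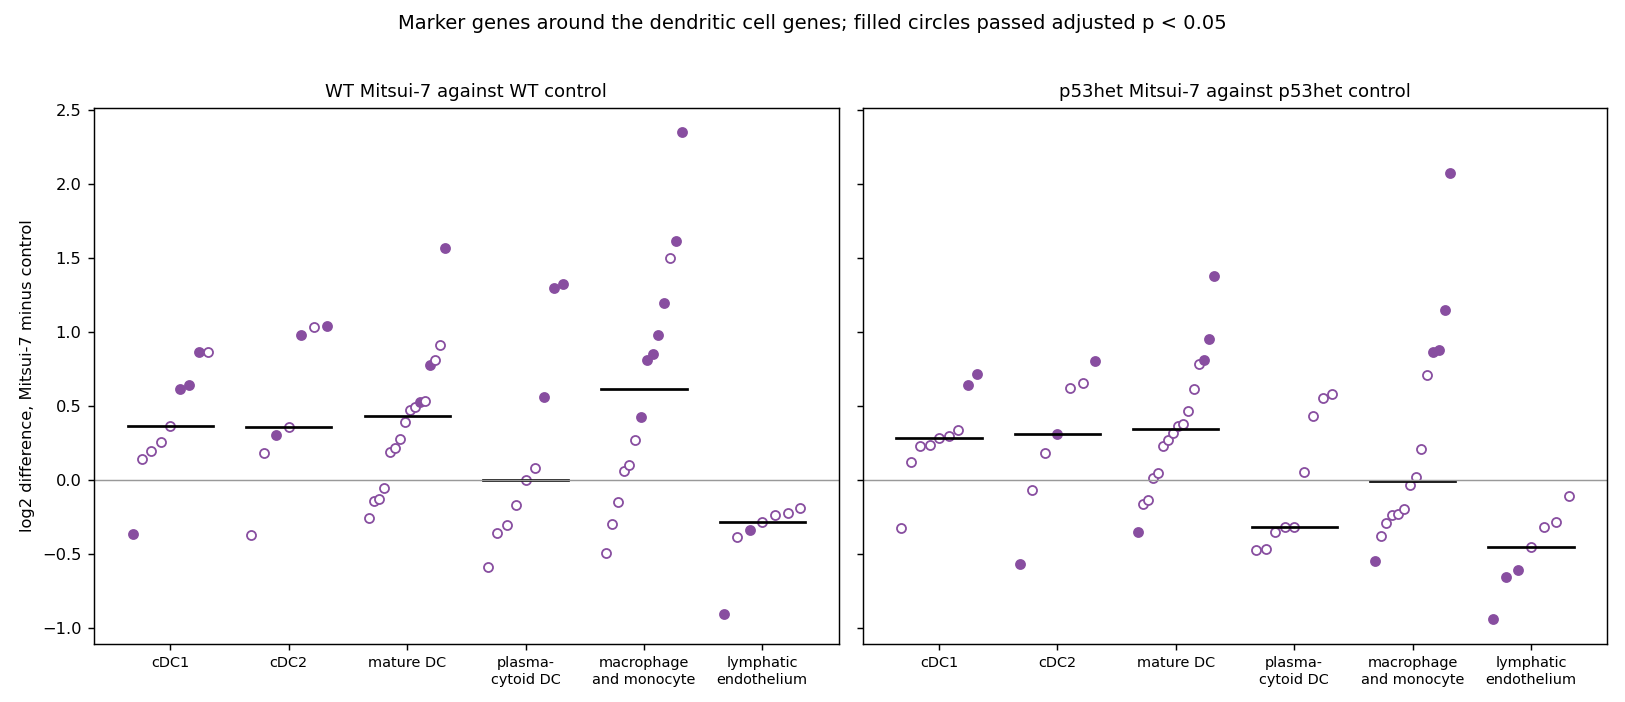
Log2 difference of Mitsui-7 from control (y axis) for each gene of 6 marker lists (x axis) in WT (left) and p53het rats (right); filled circles passed the threshold and the bar is the list's median. Medians of the cDC1, cDC2 and mature DC lists are above 0 in both genotypes (0.28 to 0.43), and every lymphatic endothelium gene, Ccl21 among them, lies below 0 in both.

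Markers of other cell types were followed as well. Of 14 macrophage and monocyte markers 7 rose with Mitsui-7 in WT rats, led by Itgam (2.35 ± 0.22, 5.09-fold), Cd14 (1.20 ± 0.13), Cd68 (0.98 ± 0.19) and Ms4a7 (1.61 ± 0.32). In p53het rats 4 rose, Itgam, Cd14, Cd68 and Ms4a7, and Fcgr3a fell (-0.55 ± 0.17). NM-403 raised Cd14 (0.47 ± 0.13) and Itgam (1.03 ± 0.22) in WT rats and lowered Fcgr3a in p53het rats (-0.75 ± 0.18). The list median was 0.62 and 0.22 in WT rats given Mitsui-7 and NM-403, and -0.0048 and 0.02 in p53het rats. Over all genes 8.41% and 5.29% were higher with Mitsui-7 in WT and p53het rats, and 2.3% with NM-403 in WT rats. The mean log2 level of the 14 ran from -2.56 to -2.33 in WT controls, -2.10 to -1.36 after Mitsui-7 and -2.22 to -2.07 after NM-403. In p53het rats it ran from -2.45 to -2.24, from -2.25 to -1.89 and from -2.60 to -1.95. Of the 14 markers 13 were above background on all arrays of each group. Macrophages can also express Cd83, Irf8, Irf4, Itgax, Cd86 and Csf2rb, and the part of these cells in the results was not tested.

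The 7 B cell markers given here had 0 calls in WT rats with either nanotube, and their median difference with Mitsui-7 was 0.03 in WT and -0.33 in p53het rats. Of 12 T cell markers Cd4 and Cd8b rose with Mitsui-7 in WT rats (0.51 ± 0.14 and 0.85 ± 0.20), and in p53het rats Cd4 rose (0.54 ± 0.14) and Cd8a fell (-0.42 ± 0.14). The T cell receptor chains Cd3e, Cd3d and Cd3g did not pass with Mitsui-7 in WT rats (0.28 ± 0.18, -0.09 ± 0.18 and 0.0058 ± 0.27). The median of the T cell list with Mitsui-7 was 0.15 in WT and -0.30 in p53het rats, so a rise of T cells is not shown. Of 7 NK cell markers Klrk1 rose in WT (0.64 ± 0.21) and Prf1 fell in p53het rats (-0.69 ± 0.17). Over all genes 8.41% rose and 5.56% fell with Mitsui-7 in WT, and 5.29% and 6.29% in p53het rats. With NM-403 none of these B, T and NK cell markers was called against control. When slide was a fixed block the B cell marker Fcrla fell with NM-403 in p53het rats, and with Mitsui-7 in p53het rats 2 of the 7 B cell markers and 3 of the 7 NK cell markers fell. With that block 1.7% of all genes fell with NM-403 and 13.4% with Mitsui-7 in p53het rats. Mean log2 levels of the 7 B cell markers ran from -3.06 to -2.23 in WT controls and from -3.04 to -2.51 after Mitsui-7, and in p53het rats from -2.83 to -2.36 and from -3.01 to -2.78.

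Of 7 markers of lymphatic endothelium, Ccl21 among them, 2 fell in WT rats given Mitsui-7 and 3 in p53het rats, and 0 rose, beside 5.56% and 6.29% of all genes lower. Ccl21 itself is among the 3, so that count is not separate from the Ccl21 result above. The hyaluronan receptor Lyve1 fell in WT (-0.90 ± 0.21, 1.87-fold lower, adjusted p = 0.00376) and in p53het rats (-0.94 ± 0.21, 1.92-fold lower, adjusted p = 0.00313), Pdpn in WT (-0.33 ± 0.11) and Mmrn1 in p53het rats (-0.61 ± 0.20). The defining transcription factor Prox1 did not pass (-0.19 ± 0.16 in WT and -0.28 ± 0.16 in p53het rats, adjusted p = 0.508 and 0.307), nor did Flt4 (-0.38 ± 0.16 and -0.45 ± 0.16) or Reln (-0.24 ± 0.20 and -0.31 ± 0.20). With NM-403 0 of the 7 were called. Under the slide block 3 and 4 fell with Mitsui-7 and 1 and 3 with NM-403, in WT and p53het rats, and Flt4 was among those that fell with Mitsui-7. Over all genes that block gave 10.5% and 13.4% lower with Mitsui-7 and 3.35% and 1.7% with NM-403. Ccl21 was among those that fell with either nanotube in p53het rats. The mean log2 level of the 7, Ccl21 included, ran from -0.03 to 0.31 in p53het controls, -0.51 to -0.04 after Mitsui-7 and -0.51 to -0.02 after NM-403. In WT rats the same ran from -0.02 to 0.26, from -0.45 to -0.0015 and from -0.26 to -0.07. Of 6 fibroblast and reticular stroma markers Col1a1 rose (0.85 ± 0.28) and Dcn fell (-0.52 ± 0.15) in WT and Pdgfra fell (-0.44 ± 0.15) in p53het rats given Mitsui-7. Which lung cells the Lyve1, Pdpn and Mmrn1 values came from was not measured, so a change of lymphatic vessels is not shown. The part of lymphatic vessels and stroma in the Ccl21 result was not tested.

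Within groups the members varied together to different degrees. Over the 35 arrays, after group and slide means were removed, Cd83 and Irf8 correlated at r = 0.773, Irf8 and Il12b at 0.632, Cd83 and Il12b at 0.599 and Clec9a and Il12b at 0.56. Ccl21 correlated negatively with Cd83 (-0.485), and Ccr7 had no r above 0.303 with another member. The genes of an array share its tissue piece, labelling and scaling, so the values are a description. The 2 genes most like each member by the same measure were Gcsam (0.845), itself a cDC1 list gene, and Ifi27l2b (0.746) for Clec9a, Bcl2a1 (0.873) and Btk (0.852) for Cd83, and Matk (0.803) and Mthfd2 (0.797) for Irf8. They were Ankrd40 (0.824) and Kcnd3 (0.795) for Zbtb46, Hist1h2ai and Ppp1r3g (0.756 each) for Flt3, Smyd5 (0.77) and Selenoo (0.706) for Ccr7, and Lats1 (0.647) and Ror1 (0.641) for Ccl21. For Ccl19 they were LOC102555398 (0.721) and Zwint (0.695), and for Il12b LOC102551304 (0.739) and Slc35f5 (0.71).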

How the data were processed

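One array was made per rat for 35 rats in 6 groups. Intensity values are the authors' deposited Agilent Feature Extraction 12.0.1.1 processed signals per spot, per the submitters' processing notes, on a linear scale and background-corrected. The authors also deposited log2 values for 11555 probes; the sources used here do not describe their filter and centring. Their column medians ran from -0.0827 to 0.0691, they correlated with the scanner values at r = 0.995 to 0.999, and they held 4 probes of the genes described (Cd83, Irf8, Ccl19 and Ccl21), so they served as an alternative. After removal of control spots and of the 221 to 699 spots an array had flagged as outliers, the log2 intensity was scaled by subtracting the 75th percentile of its array. Spots of a probe were averaged, and a gene was represented by its brightest probe. The filter asked for a signal well above background in 5 or more arrays and a value in 3 or more animals of each group, which 24468 genes met. One limma 3.58.1 model (R 4.3.3) with a mean per group gave all 9 comparisons, with Benjamini-Hochberg adjustment over all genes and a threshold of 0.05; values of single probes came from the same model fitted to all 32322 probes. The number of arrays limits the precision. The code was tested on simulated data.

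The genes described, the lists and the tests were chosen with earlier results of these data known. Named were all 10 genes, from each list up to 4 called genes per comparison by smallest adjusted p and any that moved the other way, and the 2 genes most alike in each gene's variation; a few uncalled partners and markers are given by value. Cd209a, Cd80, Il12a, Tnfsf11, Madcam1 and Fdcsp were on the array and not tested; Mgl2 and Icosl were not found by these names. The B cell list is given without 1 member, and that gene's calls and a check of the altered gene are not reported here. Alternatives were other scalings, background corrections and filters, the authors' values, slide and replicate number as blocks, array weights, and each array left out.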

Additional observations from a re-analysis of the deposited data

Results flagged for a closer look

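In groups of 5 or 6 animals, 54 sets of values of the tested genes were checked for 1 animal far from the rest, and chance marks about 1 in 20 such sets. There were 2. For Zbtb46, replicate 2 of the p53het controls had a log2 level of -2.69, and the nearest other control was at -2.26. This animal is the control that overlaps the p53het Mitsui-7 group. For Il12b, replicate 6 of the p53het Mitsui-7 group was at -7.97, not well above background, and the nearest other animal of that group was at -6.82.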

How the results depend on the processing

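Of the 17 called differences of the members, 13 kept their direction and call when each of the 35 arrays was left out in turn and 11 kept them under all other settings that measured them (13, or 12 for the genes not in the authors' values), and none changed sign in either. Of the 103 called differences of list genes, 65 kept their call on leaving out each array, 56 under the other settings and 100 with slide as a fixed block, and none changed sign; these list counts were added after seeing the data. The number called moved by more than 1.5 times as follows. For NM-403 in p53het rats it was 0 with normexp background correction, 0 in the authors' values and 2 with slide as a fixed or a random block. The authors' values, which held 4 of the 9 genes, gave 2 for Mitsui-7 in WT, 1 for NM-403 in WT and 3 for Mitsui-7 in p53het rats. With the groups compared alone in the fit, 1 gene separated the nanotubes in WT and 0 in p53het rats. Without 1 array the numbers ran from 4 to 5 (Mitsui-7 in WT), 2 to 3 (NM-403 in WT), 4 to 5 (Mitsui-7 in p53het), 1 to 1 (NM-403 in p53het), 2 to 2 (between nanotubes in WT) and 0 to 1 (in p53het), and stayed at 0 for the genotype comparison and both interactions. The replicate number as a block gave 5, 3, 5, 1, 2 and 1 in the same order and 0 for the rest. It changed no call of a member. Same-numbered animals of different groups correlated at a mean r of 0.0296 and shared only a number. Animals of different groups correlated at a mean r of 0.239 on the same slide and -0.0564 on different slides. The random slide block had a correlation of 0.354, and the main fit had no slide term.

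Calls over all genes ran from 1744 (authors' values, 17.8% of the 9803 genes they held, against 14% of 24468) to 5430 (slide block) around 3418 for Mitsui-7 in WT, and from 1408 to 5521 around 2832 in p53het rats. For NM-403 they ran from 459 to 1901 around 783 in WT, the lowest without WT NM-403 replicate 6, and from 158 (groups compared alone) to 2576 (array weights) around 373 in p53het rats. There the count was 619, 227, 234 and 231 without p53het NM-403 replicate 1, 2, 3 and 5. Between nanotubes they ran from 315 to 1541 around 814 in WT and from 135 to 1137 around 334 in p53het rats. The median of all genes moved by over 0.1 from 0.03 to 0.16 for Mitsui-7 in WT with no filter on dim probes, and in the interactions from -0.06 to -0.20 for NM-403 with normexp and from -0.05 to 0.06 for Mitsui-7 with median centring or in the authors' values. The causes were not tested. Signal over background limits Il12b, Xcr1 and the second Clec9a probe.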
